A study of Mus musculus with 34 samples.

Results

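The genes Ly6c2, Ly6c1, Plac8, Vcan, Chil3, Mcemp1, Hp and Ifitm6 are markers of classical monocytes, the blood monocytes with high surface Ly6C. They were examined here in the chromatin of monocytes, of liver macrophages and of macrophages grown in culture. Members were chosen by name: every region of the 2 deposited tables of histone H3 lysine 27 acetylation (H3K27ac) that carries 1 of these 8 gene names and lies within 100000 bp of the annotated start site (TSS), plus the transcription factor peaks that overlap such a region. That gave 59 of 84647 regions in the table of liver and blood cells and 43 of 95038 in the table of cultured macrophages, each region 2000 bp long. Merged across both tables they formed 38 separate intervals of 72271, and 205 of 496538 factor peaks overlapped them. Distances are written in bp from the TSS, negative upstream.

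The series, of 34 samples, used mouse ChIP-seq with 2 libraries in each group, so every ± below is the SD of n = 2 unless a standard error (SE) is named. H3K27ac was measured in blood Ly6C-high monocytes of untreated C57BL/6J mice, in repopulating liver macrophages (RLM) of Clec4f-cre/Rosa26iDTR mice 24 h after diphtheria toxin, in untreated Kupffer cells (KC, macrophages that live in the hepatic sinusoids), and also in macrophages grown from bone marrow (BMDM) of C57BL/6J mice grown for 4 days, untreated or given the Notch ligand DLL4 for 24 h. The sample labels give the KC strain as C57BL/6J, while the design text names Clec4f-Cre/DTR mice. In the RLM animals Cre, driven from the gene of the Kupffer cell lectin Clec4f, switches on the toxin receptor. The toxin thus removes resident KC, and the cells taken are those that refill the niche. KC were taken from untreated animals and were not followed from the RLM. Falls, rises and steps between groups are therefore differences between cell populations, not a time course. RLM also differ from both other groups by the toxin, and from the monocytes by strain. The nuclear receptor LXR was mapped in KC of Clec4f-cre mice and in C57BL/6J BMDM cultured for 7 days and given the agonist GW3965 for 18 h. SMAD4 and RBPJ were mapped in KC nuclei of Clec4f-cre mice and in untreated C57BL/6J BMDM of 4 days. The labels leave unsaid whether a group's libraries are from different animals, so p-values measure the spread between libraries, which may be technical.

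H3K27ac marks active promoters and enhancers and is lost as an element is switched off. Classical monocytes leave the marrow, circulate briefly and can enter tissue, where they lose their own marker genes as they take on the programme of a resident macrophage. Ly6c1 and Ly6c2 encode the GPI-anchored surface proteins detected by Ly6C antibodies. Vcan encodes versican, a matrix proteoglycan, and Chil3 encodes Ym1, a secreted chitinase-like lectin. Mcemp1 encodes a transmembrane protein of myeloid cells. Hp encodes haptoglobin, the haemoglobin scavenger that is also a major hepatocyte product. Ifitm6 belongs to the interferon-induced transmembrane family, and Plac8 encodes a small cysteine-rich protein found in many leukocytes. LXR, SMAD4 (the shared effector of TGF-beta and BMP signals) and RBPJ (the DNA-binding effector of Notch) are factors known to act in Kupffer cell development.

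Chil3 has no region over its start site and is left out of the sequences. Sequences upstream of the start sites are shown for 5 members with a called change at a region over the start site. That of Ly6c1 is also shown, as the paralogue of Ly6c2 among the members. Each is the 250 bases before the TSS from RefSeq (GRCm38.p6, the assembly that mm10 names), 5′ to 3′ on the gene's strand, where a table of promoters held an entry for 7 of the 8 members, all but Hp. Capitals mark matches on either strand to 6 short motifs: PU.1 GAGGAA, C/EBP TTGCNNAA, AP-1 TGANTCA, RBPJ TGGGAA, SMAD CAGAC and the nuclear receptor motif AGGTCA. A SMAD match can overlap an RBPJ match, as it does in Ifitm6.
Ly6c2, chr15:75111972-75112221, minus strand: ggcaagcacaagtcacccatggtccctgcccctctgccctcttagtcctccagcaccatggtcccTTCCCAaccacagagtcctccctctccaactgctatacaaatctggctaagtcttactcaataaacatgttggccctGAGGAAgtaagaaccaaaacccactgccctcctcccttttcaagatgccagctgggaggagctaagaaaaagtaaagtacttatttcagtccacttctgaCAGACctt
Ly6c1, chr15:75048838-75049087, minus strand: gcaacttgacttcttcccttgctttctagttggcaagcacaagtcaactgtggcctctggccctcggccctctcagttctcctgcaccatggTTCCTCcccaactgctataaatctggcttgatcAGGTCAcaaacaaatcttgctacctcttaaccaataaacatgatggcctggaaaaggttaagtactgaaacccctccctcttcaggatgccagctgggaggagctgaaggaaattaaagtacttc
Ifitm6, chr7:141016893-141017142, minus strand: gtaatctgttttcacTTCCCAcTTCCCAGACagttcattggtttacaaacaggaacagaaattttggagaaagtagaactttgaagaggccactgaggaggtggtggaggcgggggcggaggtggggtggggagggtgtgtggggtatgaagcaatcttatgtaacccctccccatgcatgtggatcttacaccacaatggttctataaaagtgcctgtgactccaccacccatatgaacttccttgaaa
Mcemp1, chr8:3665512-3665761, plus strand: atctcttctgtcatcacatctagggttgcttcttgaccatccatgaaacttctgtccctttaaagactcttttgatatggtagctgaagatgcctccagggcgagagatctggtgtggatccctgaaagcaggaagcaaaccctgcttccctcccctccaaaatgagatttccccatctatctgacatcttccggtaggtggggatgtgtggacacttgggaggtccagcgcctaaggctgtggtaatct
Plac8, chr5:100572206-100572455, minus strand: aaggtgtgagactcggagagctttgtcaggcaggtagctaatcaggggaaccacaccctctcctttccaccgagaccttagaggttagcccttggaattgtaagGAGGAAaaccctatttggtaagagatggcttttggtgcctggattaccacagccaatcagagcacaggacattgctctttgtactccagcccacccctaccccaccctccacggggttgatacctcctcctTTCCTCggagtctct
Vcan, chr13:89742513-89742762, minus strand: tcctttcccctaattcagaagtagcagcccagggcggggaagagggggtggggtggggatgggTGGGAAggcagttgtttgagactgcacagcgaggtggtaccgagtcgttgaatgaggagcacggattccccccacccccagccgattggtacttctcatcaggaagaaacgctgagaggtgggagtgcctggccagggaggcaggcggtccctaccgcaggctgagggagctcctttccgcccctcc

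Among 32851 promoter windows of the same length, 23.3% held the PU.1 letters, 9.56% C/EBP, 6.75% AP-1, 21.6% RBPJ, 42.2% SMAD and 14.0% AGGTCA. The Ly6c2 window held 1 PU.1, 1 RBPJ and 1 SMAD match, and the Ly6c1 window 1 PU.1 match and 1 AGGTCA. Aligned end to end, these paralogous windows matched in 171 of 290 columns (59.0%), with a longest shared run of 20 bp. The other pairs of member windows matched in 41.2% to 50.9% of columns under the same alignment. How reads that fit both paralogues were assigned is not given in the sources used here, so the split between Ly6c2 and Ly6c1 is uncertain. The Ifitm6 window held 2 RBPJ matches and 1 SMAD match, all between -235 and -220 bp. None of the 6 motifs was found in the Mcemp1 window, 2 PU.1 matches in that of Plac8 and 1 RBPJ match in that of Vcan. A match is a string of letters, not a binding site.

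Levels are given in CPM, the usual counts scaled to the same total in every library, over the tested regions (the tested genes for gene sums) and after TMM scaling. All regions are 2000 bp long, so their levels can be compared between genes. A region or gene was called when the edgeR quasi-likelihood test gave a Benjamini-Hochberg adjusted p below 0.05 and a fold of at least 2, and fold changes are log2 values with their standard error (SE). Depth was 7368619 to 19498952 tags in regions for the blood and liver libraries and 20178916 to 27239851 tags for BMDM. The 10 Kupffer cell marker genes, among them Clec4f, were all called higher in KC than in monocytes. Their summed level was 149 to 175 CPM in monocytes, 484 to 511 CPM in RLM and 2214 to 2464 CPM in KC. In a bulk sample, fewer cells carrying a mark and less of the mark in each cell cannot be told apart.

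Between monocytes and RLM at 24 h, 14 of the 57 tested member regions were called lower (24.6%), against 9.14% of all tested regions, and 1 was called higher (against 8.57%). Of the 59 regions, 2 (at Ly6c1 and Plac8) did not pass the filter on low counts. Between RLM and KC, 19 were called higher (background 22.3%) and 17 lower (background 13.9%). Between monocytes and KC, 25 were called lower (43.9%, background 17.7%) and 14 higher (24.6%, background 24.9%), so the share of higher calls lay at the background. Many of these regions overlap a neighbour of the same gene and are not independent. The 3 comparisons share libraries in pairs. The members' median log2 fold change was -0.51 from monocyte to RLM, -0.71 from RLM to KC and -0.82 from monocyte to KC, where the medians over all tested regions were 0.07, -0.04 and -0.06.

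Summed over all regions of a gene, 3 of the 8 members were called lower in RLM than in monocytes (Mcemp1, Hp and Ifitm6) where 5.8% of all tested genes were, and 0 were called higher by edgeR or by DESeq2 (background 6.2%). At an unadjusted p below 0.05, 1 member was higher (Ly6c2) and 4 were lower. The change of the Ly6c2 sum was 0.72 (SE 0.15, edgeR adjusted p = 0.000200), under the fold minimum. From RLM to KC, 4 were called lower (Ly6c2, Vcan, Chil3 and Hp, background 12.8%) and 2 higher (Plac8 and Ifitm6, background 14.6%). From monocyte to KC, 5 were called lower (Ly6c1, Vcan, Chil3, Mcemp1 and Hp, background 14.4%) and 1 higher (Plac8, background 18.4%). The patterns differed between members, as the plot of the nearest region by library shows. Most of the difference of Mcemp1 lay between monocytes and RLM. The sums of Vcan and Chil3 were called lower in KC than in RLM, and not in RLM than in monocytes. Hp was lower in RLM than in monocytes and lower again in KC. Ifitm6 was lowest in RLM, and Plac8 was higher in KC than in RLM.

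**Figure D1:**
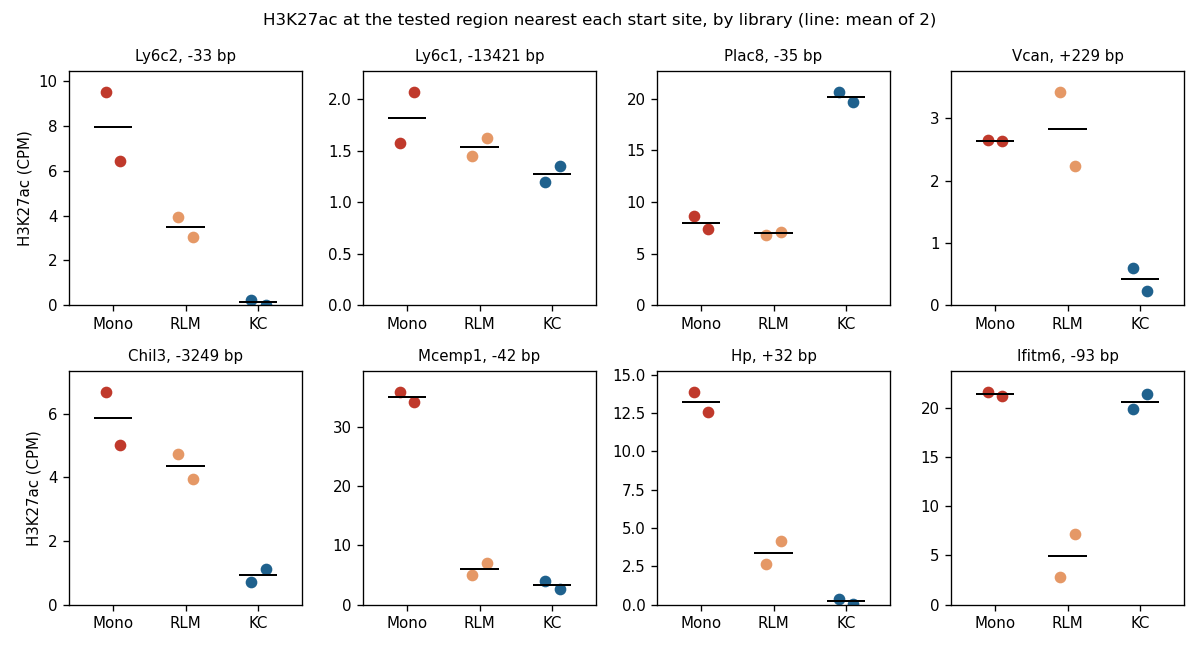
H3K27ac in CPM (vertical axis, from 0, scaled per panel) at the tested region nearest the TSS of each member, for 2 monocyte, 2 RLM and 2 KC libraries (points) with their mean (line). Mcemp1 and Hp stood far lower in RLM than in monocytes (for Mcemp1 4.99 and 7.01 against 35.9 and 34.2 CPM), Ifitm6 was low in RLM alone, and Plac8 was highest in KC.

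Mcemp1 was called lower in RLM at each of its 3 regions. Its promoter region at -42 bp stood at 35.9 and 34.2 CPM in the monocyte libraries, 4.99 and 7.01 CPM in RLM, and 3.93 and 2.64 CPM in KC. Monocytes lay far above both other groups, and RLM above KC without overlap. The change from monocyte to RLM was -2.53 (SE 0.28, edgeR adjusted p = 3.24e-11), and that from RLM to KC was -0.93 (SE 0.32, edgeR adjusted p = 0.0149), under the fold minimum. The region at -4660 bp went from 13.6 and 15.6 CPM to 1.18 and 2.64 CPM in RLM, a change of -2.88 (SE 0.38), and to 0.83 and 0.53 CPM in KC. Its further change from RLM to KC was -1.60 (SE 0.52, edgeR adjusted p = 0.00883), and that call was lost without the second RLM library (-0.85) or without the second KC library (-1.21). At -1155 bp the level was 28.3 and 22.2 CPM in monocytes and 4.99 and 7.11 CPM in RLM.

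Hp was called lower in RLM at 2 of its 4 regions and was near 0 in KC. Its promoter region at 32 bp held 13.9 and 12.5 CPM in monocytes, 2.63 and 4.17 CPM in RLM, and 0.36 and 0.06 CPM in KC. No group overlapped another. The step from monocyte to RLM was -1.94 (SE 0.36, edgeR adjusted p = 1.30e-05) and the step from RLM to KC was -4.33 (SE 0.62, edgeR adjusted p = 1.59e-08). The upstream region at -6714 bp had 14.5 and 10.3 CPM in monocytes against 1.58 and 3.35 CPM in RLM (-2.29, SE 0.38). In KC that region held 2 tags against 45 in RLM, a ratio of 32.8 with an exact binomial 95% interval of 8.56 to 279, which covers counting error only. Within the gene at 1742 bp, the monocyte (6.86 and 4.13 CPM) and RLM (2.63 and 4.17 CPM) libraries overlapped with no call, and the step from RLM to KC was -3.39 (SE 0.58). Hepatocytes make haptoglobin: of 8 hepatocyte genes 3 were tested, Alb, Ttr and Apoa1, with a summed level of 15.8 to 17.1 CPM in monocytes, 19.1 to 20.3 CPM in RLM and 48.1 to 50.7 CPM in KC, and the table held no region within reach of the other 5. Ttr made up most of the KC sum (37.4 CPM), while Alb stood at 3.86 CPM in monocytes and 5.61 CPM in KC. The part of hepatocyte material in the Hp values was not tested.

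Vcan split by element. The pair of overlapping regions at -86088 and -85516 bp was called lower in RLM than in monocytes, while the intronic regions near the start site were not. Those intronic regions were called lower in KC than in either other group. At -85516 bp the libraries read 14.5 and 16.1 CPM in monocytes, 2.50 and 2.84 CPM in RLM, and 0.48 and 0.59 CPM in KC. The drop from monocyte to RLM was -2.51 (SE 0.35, edgeR adjusted p = 3.11e-08). In the intron at 3065 bp, monocytes had 27.6 and 37.8 CPM and RLM 34.4 and 32.6 CPM, with the RLM libraries inside the monocyte range, and KC had 4.65 and 3.23 CPM. The difference between monocyte and RLM was 0.03 (SE 0.23), and the fall from RLM to KC was -3.13 (SE 0.28, edgeR adjusted p = 1.14e-15). The start-site region itself, at 229 bp, was weak: 2.64 and 2.64 CPM in monocytes, 3.42 and 2.23 CPM in RLM, and 0.60 and 0.23 CPM in KC. In KC, 11 of the 13 Vcan regions were called lower than in monocytes, the exceptions being those at -43091 and 74301 bp. Summed over the gene, Vcan was 139 ± 12.8 CPM in monocytes, 109 ± 2.03 CPM in RLM and 20.4 ± 2.81 CPM in KC.

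Chil3 had 2 tested regions, both upstream and neither at the start site. At -3249 bp the values were 6.69 and 5.04 CPM in monocytes, 4.73 and 3.96 CPM in RLM, and 0.72 and 1.11 CPM in KC. KC lay below all other libraries, and the RLM libraries lay just below the monocyte ones. The change from monocyte to RLM was -0.44 (SE 0.38, edgeR adjusted p = 0.462), and that from RLM to KC -2.16 (SE 0.46, edgeR adjusted p = 7.25e-05).

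Ly6c2 had 6 tested regions: the promoter, 2 further upstream and 3 downstream. Its promoter region at -33 bp held 9.51 and 6.44 CPM in monocytes, 3.94 and 3.05 CPM in RLM, and 0.24 and 0 CPM in KC, with no overlap between groups. The RLM change of -1.20 (SE 0.39, edgeR adjusted p = 0.0177) was called, but the call was lost with DESeq2 (adjusted p = 0.0579), without the first monocyte library (edgeR adjusted p = 0.146) and without the second RLM library (edgeR adjusted p = 0.119). In KC the promoter had 2 tags in all against 193 in monocytes, a ratio of 101 (exact binomial 95% interval 27.7 to 843). Upstream, the region at -6974 bp held 2.31 and 3.14 CPM in monocytes, 1.97 and 1.93 CPM in RLM, and 0.24 and 0.23 CPM in KC, called lower in KC than in monocytes (-3.47, SE 0.69, edgeR adjusted p = 1.33e-05) and than in RLM (-2.99, SE 0.72, edgeR adjusted p = 0.000393). The region at -8290 bp had no call. Downstream lay a block of 3 overlapping regions at 25078, 25580 and 26335 bp downstream, chr15:75084602-75087859 (mm10), which overlaps no gene of the RefSeq table and holds 97.0% of the Ly6c2 tags. Its middle region read 95.1 and 90.1 CPM in monocytes, 153 and 149 CPM in RLM, and 48.5 and 56.1 CPM in KC, at percentile 99.5 of all tested regions by mean level. RLM were highest and KC lowest, without overlap. The RLM change of 0.70 (SE 0.19, edgeR adjusted p = 0.00287) missed the fold minimum, and the change from RLM to KC was -1.52 (SE 0.19, edgeR adjusted p = 5.46e-10). The gene sum of Ly6c2 therefore describes this block: 226 ± 13.4 CPM in monocytes, 374 ± 12.2 CPM in RLM and 135 ± 6.96 CPM in KC. With the block left out, the RLM change of the sum turned from 0.72 to -0.82 (edgeR adjusted p = 0.0520), and the KC change against monocytes went from -0.74 to -3.71 (edgeR adjusted p = 1.10e-10).

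Ly6c1, in spite of its shared name, had no region within 10000 bp of its start site and 3 weak ones further upstream. At -21332 bp monocytes had 3.97 and 3.14 CPM, RLM 1.97 and 0.71 CPM, and KC 0.72 and 0.35 CPM. The RLM libraries lay between the other groups, and the second of them overlapped the KC range. KC were called lower than monocytes there (-2.82, SE 0.61, edgeR adjusted p = 5.55e-05). The RLM call (-1.44, SE 0.55, edgeR adjusted p = 0.0462) was lost with DESeq2, with total tags as library size and on leaving out any library but the first RLM library (edgeR adjusted p = 0.0577 to 0.391). At -13421 bp the 6 libraries ranged from 1.19 to 2.06 CPM with no call. The called gene sum, -1.05 (SE 0.39, edgeR adjusted p = 0.0210) from monocyte to KC, was lost with DESeq2 (adjusted p = 0.0517) and when any monocyte or KC library was left out (edgeR adjusted p = 0.0501 to 0.115).

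Ifitm6 fell in RLM and rose again in KC. At -93 bp the libraries read 21.7 and 21.2 CPM in monocytes, 2.76 and 7.21 CPM in RLM, and 19.9 and 21.4 CPM in KC. Both RLM libraries were below every other library, and monocytes and KC overlapped. The fall to RLM was -2.06 (SE 0.30, edgeR adjusted p = 7.21e-08) and the rise to KC 2.01 (SE 0.30, edgeR adjusted p = 5.31e-08). Without the first RLM library these were -1.58 and 1.54, and without the second -2.96 and 2.92, all still called. KC minus monocyte was -0.05 (SE 0.26, edgeR adjusted p = 0.887). The regions at -554 and -5352 bp gave falls of -2.14 and -1.94 and rises of 2.06 and 1.96. Further upstream, at -8059 bp, KC exceeded monocytes: 10.7 and 7.35 CPM in monocytes, 4.07 and 5.89 CPM in RLM, and 17.8 and 21.7 CPM in KC (KC minus monocyte 1.13, SE 0.28, edgeR adjusted p = 0.000441). That fold fell below 2 without the second monocyte library (0.90) or the second KC library (0.98), both still at an adjusted p below 0.05 by edgeR. The neighbouring family member Ifitm3 was called lower in RLM (-1.48, SE 0.17) and did not pass the fold minimum from RLM to KC (0.62, SE 0.17), and Ifitm2 was -1.27 (SE 0.15) and then 1.43 (SE 0.15), both called. Of 6 other Ifitm genes 5 were tested, with 2 called lower in RLM than in monocytes and 3 called higher in KC than in RLM.

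Plac8 was the only member whose sum was called higher in KC than in monocytes. Of its 21 tested regions, 14 were called higher in KC than in RLM, and 12 higher and 1 lower in KC than in monocytes. In its first intron at 1361 bp the values were 9.42 and 8.67 CPM in monocytes, 12.0 and 10.6 CPM in RLM, and 38.0 and 42.1 CPM in KC. KC lay far above the rest, and RLM slightly above monocytes. The rise from RLM to KC was 1.83 (SE 0.25, edgeR adjusted p = 5.01e-09). The region with the largest change from RLM to KC lay at 14964 bp, with 4.71 and 0.99 CPM in monocytes, 1.45 and 3.25 CPM in RLM, and 16.6 and 18.8 CPM in KC (2.87, SE 0.40). A distal element moved otherwise: at -42069 bp monocytes had 14.8 and 15.7 CPM, RLM 5.52 and 4.67 CPM, and KC 10.8 and 9.27 CPM. Its fall from monocyte to RLM was -1.59 (SE 0.30, edgeR adjusted p = 2.83e-05), its change from RLM to KC 0.98 (SE 0.31) and from monocyte to KC -0.61 (SE 0.28, edgeR adjusted p = 0.0617). At -13015 bp monocytes had 6.69 and 6.94 CPM, RLM 3.68 and 1.93 CPM, and KC 7.51 and 4.22 CPM, called lower in RLM than in monocytes (-1.31, SE 0.39, edgeR adjusted p = 0.00727) and higher in KC than in RLM (1.05, SE 0.39, edgeR adjusted p = 0.0234). Without the second RLM library both calls were lost (-0.89 and 0.65). The call of KC against RLM was lost in 5 alternative settings in all, among them without the first KC library (0.65) and with DESeq2 (adjusted p = 0.0780). The lower call in KC against monocytes, at -25870 bp (-1.67, SE 0.65, edgeR adjusted p = 0.0266), was lost in 4 alternative settings. Among them were those without the second monocyte library (-1.62) or either KC library (-1.83 and -1.42). The higher call in RLM against monocytes, at -11129 bp (1.18, SE 0.39, edgeR adjusted p = 0.0172), was lost without the first monocyte (0.93) or the second RLM library (0.84). The plot of region levels by distance shows the element at -42069 bp apart from the intronic ones.

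**Figure D2:**
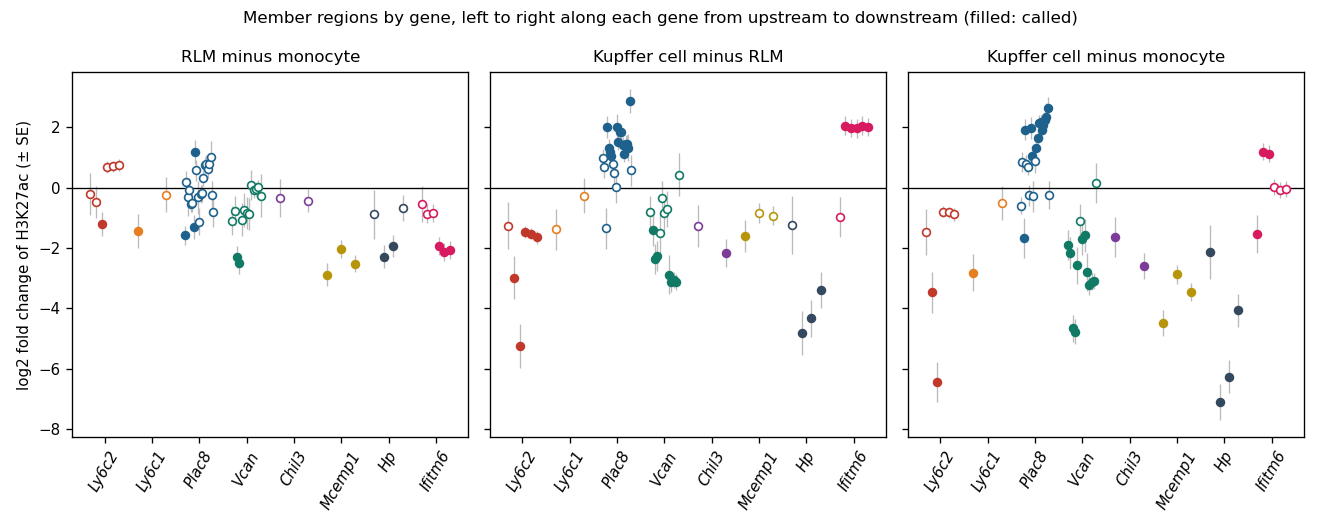
Log2 fold change of H3K27ac (± SE) for every tested member region in 3 comparisons, grouped by gene and ordered from upstream to downstream within each gene, with filled points called. In KC against monocytes Hp and the Ly6c2 promoter reached the lowest values, down to -7.11 at the Hp region at -6714 bp, while Plac8 regions lay mostly above 0.

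**Figure D3:**
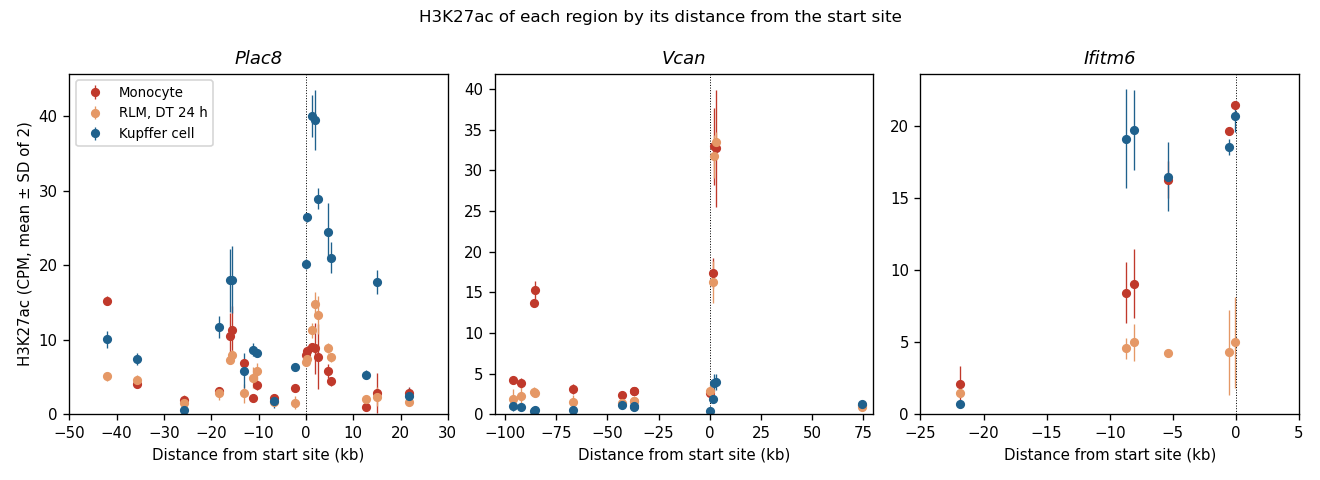
H3K27ac in CPM (mean ± SD of 2 libraries) of each tested Plac8, Vcan and Ifitm6 region against its distance from the TSS in kb, for monocytes, RLM and KC. At Vcan the intronic regions are alike in monocytes and RLM (32.7 and 33.5 CPM at 3065 bp) while the pair at -86088 and -85516 bp is higher in monocytes than in the other groups.

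Of 20 other listed genes of the classical monocyte signature, 18 were tested. In RLM against monocytes 9 were called lower (background 5.8%), in KC against RLM 10 lower (background 12.8%) and 4 higher (background 14.6%), and in KC against monocytes 11 lower (background 14.4%) and 3 higher (background 18.4%). The lowest value from monocyte to KC was that of Fn1, which encodes fibronectin (-7.32), and among the higher calls Cd14, the lipopolysaccharide co-receptor, was at 1.84. The genes whose course over the 6 libraries came closest, by Euclidean distance between centred log2 CPM of the gene sums, were Cib3 and Gas7 for Mcemp1 (distances 0.39 and 0.48), Padi4 and Slc22a15 for Hp (0.50 and 0.56), Prkd3 and Nup210 for Vcan (0.27 and 0.28), Mettl14 and Il18 for Ifitm6 (0.33 and 0.47) and Vav2 and Kif23 for Plac8 (0.15 and 0.17). For Chil3 they were AA387883 and Fam149a (0.32 and 0.40), for Ly6c1 Mybpc2 and Pigq (0.15 and 0.18), and for Ly6c2, whose sum is its downstream block, Chchd4 and Ccdc110 (both 0.19).

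Several members are also expressed by neutrophils. Of 10 neutrophil genes, 8 were tested, and their summed level was 170 to 192 CPM in monocytes, 113 to 131 CPM in RLM and 230 to 287 CPM in KC, with Csf3r, also a monocyte gene, the largest part in every group. Gene by gene, 1 of these 8 was called higher (background 14.6%) and 3 lower (background 12.8%) in KC than in RLM. Against monocytes, 0 were called higher (background 18.4%) and 4 lower (background 14.4%) in KC. The median log2 fold changes were -0.48 and -1.20. The table held no region within reach of the defining neutrophil genes Camp and Ngp, and Ly6g, a paralogue of Ly6c2, went from 10.5 CPM in monocytes to 6.38 CPM in RLM and 1.99 CPM in KC. Ly6e, another paralogue, was called higher in KC than in monocytes (1.57, SE 0.15). Of 8 lymphocyte genes 4 were tested, with a summed level of 74.2 to 99.4 CPM in monocytes, 43.6 to 59.2 CPM in RLM and 26.6 to 27.2 CPM in KC. The 9 tested endothelial genes summed to 95.7 to 104 CPM in monocytes, 121 to 128 CPM in RLM and 212 to 214 CPM in KC. Of these 9, 2 were called higher and 4 lower in KC than in RLM, with a median log2 fold change of -1.08, and 4 higher and 3 lower in KC than in monocytes, and Stab2 (9.72, 13.6 and 75.7 CPM) and Pecam1 (43.7, 65.3 and 102 CPM in monocytes, RLM and KC) made up most of the sum in KC. Of 5 red cell and platelet genes 3 were tested, with a summed level of 18.7 to 19.3 CPM in monocytes, 51.0 to 55.8 CPM in RLM and 51.9 to 61.1 CPM in KC, and 1 of them, Pf4, was called higher in RLM than in monocytes. The part of these other cell types in the members' values was not tested.

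In cultured BMDM the same 8 genes were measured with and without DLL4. That table has its own set of regions, with none over the Plac8 start site. It was also normalized apart from the first, so levels are not compared across the tables by test. Of 43 member regions, 38 passed the filter. With DLL4, 5 were called lower (13.2%, background 2.64%), 3 at Ifitm6 and 2 at Vcan. By edgeR 0 were called higher (background 4.89%), 0 had an unadjusted p below 0.05 in that direction, and DESeq2 also called 0. Summed over the gene, 0 of 8 members were called lower (background 1.28%) or higher (background 2.6%) by edgeR, and DESeq2 called 0 as well. With no fold minimum, 4 passed in the lower direction: Ifitm6 (-0.84, SE 0.075), Ly6c2 (-0.77, SE 0.12), Vcan (-0.42, SE 0.10) and Mcemp1 (-0.39, SE 0.13). At an unadjusted p below 0.05, 5 were lower and 0 higher. The median log2 fold change of the members' regions was -0.42, against -0.02 for all tested regions. Among the other classical monocyte genes, Clec4e, which encodes the lectin Mincle, was called lower with DLL4 (-1.21).

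Ifitm6 was the most acetylated member in untreated BMDM. Its promoter region at -72 bp read 36.6 and 41.7 CPM untreated and 20.2 and 16.8 CPM with DLL4. The groups did not overlap. The change was -1.09 (SE 0.11, edgeR adjusted p = 6.52e-10), and the fold fell below 2 without the second untreated or the second DLL4 library (-0.98 and -0.96, both still at an adjusted p below 0.05 by edgeR). The region at -5373 bp went from 29.5 and 32.0 CPM to 12.5 and 12.3 CPM (-1.31, SE 0.12, edgeR adjusted p = 9.41e-11). At -8047 bp the change was smaller, from 26.6 and 26.7 CPM to 19.9 and 18.7 CPM (-0.46, SE 0.11).

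At Vcan the distal pair, also lower in RLM than in monocytes, was called lower with DLL4, and no tested intronic region was. The intronic region at 74302 bp did not pass the filter on low counts and was not tested. It held 18 and 7 tags untreated and 2 and 0 tags with DLL4, so the absence of a call does not cover it. The region at -85540 bp read 8.41 and 6.51 CPM untreated and 2.37 and 3.04 CPM with DLL4, without overlap (-1.46, SE 0.26, edgeR adjusted p = 4.90e-05). In the intron at 3077 bp the values overlapped, with 11.1 and 13.8 CPM untreated and 12.1 and 11.5 CPM with DLL4 (-0.08, SE 0.16, edgeR adjusted p = 0.801). The difference between the changes of these elements was not tested.

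The Ly6c2 block at 25553 bp read 26.6 and 20.8 CPM untreated and 14.8 and 11.7 CPM with DLL4, a change of -0.83 (SE 0.14, edgeR adjusted p = 1.95e-05) under the fold minimum. The Ly6c2 promoter was weak, at 2.19 and 2.46 CPM untreated and 1.67 and 1.47 CPM with DLL4 (-0.56, SE 0.40, edgeR adjusted p = 0.370). Mcemp1 at -46 bp had 11.1 and 17.9 CPM untreated and 10.9 and 10.2 CPM with DLL4 (-0.47, SE 0.17, edgeR adjusted p = 0.0507), where the second untreated library stood above the other 3. Hp at 10 bp had 4.62 and 4.78 CPM untreated and 3.90 and 3.57 CPM with DLL4 (-0.33, SE 0.27, edgeR adjusted p = 0.448). Plac8 was weak in BMDM, with no tested region above 4.18 CPM in any library, and its strongest, at 1986 bp, read 3.06 and 3.84 CPM untreated and 3.49 and 4.18 CPM with DLL4.

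**Figure D4:**
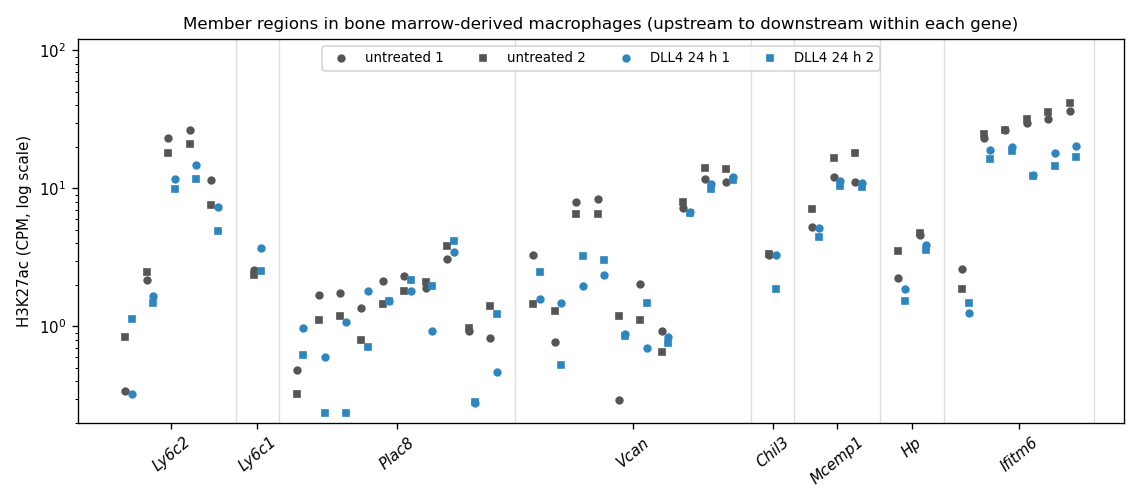
H3K27ac in CPM (log axis) of the 38 tested member regions in 2 untreated BMDM libraries (grey) and 2 DLL4 libraries (blue), ordered from upstream to downstream within each gene. The groups separate at Ifitm6, at the distal pair of Vcan and at the Ly6c2 block, and overlap at the Vcan intron region at 3077 bp.

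Of the 38 member intervals, Plac8 holds 15 and Ifitm6 4, and these carried most of the factor peaks in KC. In KC, 12 of the 38 member intervals carried an LXR peak in both libraries (31.6%, against 29.4% of all 72271 H3K27ac intervals), and 7 of the 12 were at Plac8 and 3 at Ifitm6, with 1 each at Mcemp1 and Ly6c1. SMAD4 in KC nuclei marked 11 (28.9%, against 23.4%), of which 7 were at Plac8, 3 at Ifitm6 and 1 at Mcemp1. RBPJ in KC nuclei marked 4 (10.5%, against 7.78%), 2 at Plac8, 1 at Ifitm6 and 1 at Ly6c2, where the peaks of the libraries lay apart, at -6945 and -8292 bp. In BMDM, LXR marked 11 (28.9%, against 26.02%), SMAD4 7 (18.4%, against 22.1%) and RBPJ 26 (68.4%, against 63.2%). All of these shares lay near those of the H3K27ac intervals at large. RBPJ libraries of KC nuclei had an approximate pull-down efficiency of 1.01% and 0.76% and few peaks, where those of BMDM had 25.1% and 24.5%, so the RBPJ counts of the 2 cell types are not compared. The authors called peaks per library against an input. Per the file headers, the input of the second LXR library of KC is named for a NASH diet while the ChIP library is named for a control diet, and 1 input serves both SMAD4 replicate 2 and RBPJ replicate 1 of KC nuclei.

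At the Ifitm6 promoter, peaks of all 3 factors were present in all 12 libraries. In KC their centres lay at -221 and -159 bp for LXR, -215 and -230 bp for SMAD4 and -237 and -188 bp for RBPJ. The RBPJ peaks of KC there had a fold over input of only 5.69 and 11.54. In the sequence shown above, the RBPJ and SMAD letters lay between -235 and -220 bp, and AGGTCA was absent. Whether a factor binds these letters was not tested. In BMDM the LXR centres were at -49 and -213 bp, the SMAD4 centres at -29 and -53 bp and the RBPJ centres at -2 and 8 bp. By the authors' normalized tag count, the RBPJ peaks of BMDM there were at 135 and 128, at percentile 98.9 of both lists, and the LXR peaks of KC at 105 and 37.1.

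Plac8 carried the strongest LXR peaks among the members in KC. At 15012 and 14997 bp they had normalized tag counts of 171 and 69.1, at percentiles 99.3 and 99.1 of their lists, and the same intronic interval had a peak in all 12 libraries. At 5208 and 5161 bp the LXR counts in KC were 143 and 52.0. The distal element at -42069 bp was marked by LXR in all 4 libraries, by SMAD4 in both KC libraries and neither BMDM library, and by RBPJ in all 4 libraries. Mcemp1 had peaks in KC near its region at -1155 bp: LXR at -1172 and -1136 bp with counts of 74.1 and 21.1 in KC, and SMAD4 at -1139 and -1130 bp with counts of 47.5 and 66.5. BMDM had peaks there too, with counts of 43.9 and 97.7 for LXR, 73.6 and 32.3 for SMAD4 and 70.5 and 78.3 for RBPJ. In all, 11 of the 12 libraries had a peak on this interval.

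Vcan, Chil3 and Hp together have 12 intervals. They are grouped here by a shared absence: in KC none of the 12 had an LXR, SMAD4 or RBPJ peak in both libraries. Of all H3K27ac intervals 29.4%, 23.4% and 7.78% did. Because the absence is fixed by the grouping, no conclusion is drawn from its distance to these shares. In BMDM 11 of the 12 had an RBPJ peak in both libraries, where 63.2% of all intervals did. This count is not compared with that of KC nuclei, whose RBPJ libraries had a low pull-down efficiency. Peaks in a single KC library were seen on these intervals. Examples are an LXR peak at the Hp promoter (-52 bp) in the second library and SMAD4 peaks at the Vcan intron and at -92129 bp in the first. At the Vcan intron SMAD4 peaks of BMDM stood at 3092 and 3066 bp with counts of 61.0 and 61.8. The strongly acetylated Ly6c2 block overlapped no peak of any of the 12 lists. The Ly6c2 promoter had RBPJ peaks in the 2 BMDM libraries, at -74 and -55 bp, and the weak Ly6c1 region upstream of the start site had LXR peaks in all 4 libraries, at -13514 and -13479 bp in KC with counts of 48.8 and 14.4.

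**Figure D5:**
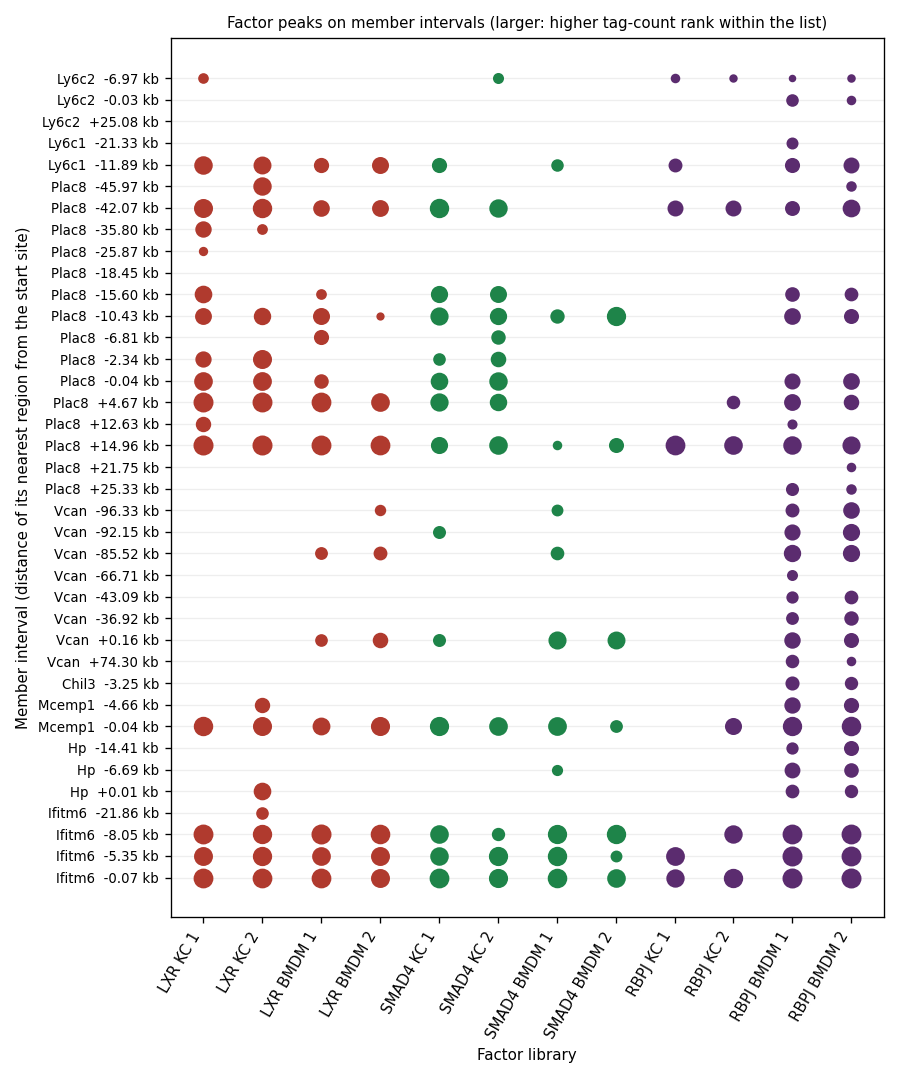
Presence of LXR, SMAD4 and RBPJ peaks in each of 12 libraries (columns) on each of the 38 member intervals (rows, by gene and distance of the nearest region from the TSS in kb), with point size growing with the percentile of the strongest peak's tag count in its own list. Most marks of KC libraries are on Ifitm6 and Plac8 rows, though not on all of these rows. RBPJ in BMDM marks rows of every member, among them Vcan, Chil3 and Hp. The Ly6c2 block at 25078 bp and the Plac8 row at -18453 bp carry no mark.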

How the data were processed

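The authors deposited raw tag counts per H3K27ac region, and a column of each table names the peak lists of its own groups that were joined. For each factor library they deposited a peak list with a signal (normalized tag count) and a ratio (fold over input). Per the file headers, HOMER called peaks at a false discovery rate of 0.001, with a minimum fold of 4 against both input and local tags. Bowtie2 and the mm10 build come from the submitters' processing notes, without versions.

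From the deposited counts, regions and gene sums (all regions naming a gene within 100000 bp) were filtered with filterByExpr, scaled by TMM and tested with edgeR 4.0.16 (robust quasi-likelihood) in R 4.3.3. The 6 blood and liver libraries shared 1 fit, and the 4 BMDM libraries another. The SE is the absolute log2 fold change divided by the square root of the F statistic. The scripts were tested on simulated data. An interval counted as bound when a peak overlapped it by at least 1 bp in both libraries.

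For each member, the regions named are the nearest to the TSS, the strongest and those with the largest change per comparison; others described beside them were chosen after their values were seen. The members and gene lists were chosen with earlier results of these data known. DESeq2 1.42.0, other scalings and filters, other distances and leaving out each library were tried as alternatives. Replicate pairs differed beyond sampling noise (chi-square per degree of freedom 2.83 to 4.28). The 12 input samples were not analysed on their own.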

Additional observations from a re-analysis of the deposited data

How the results depend on the processing

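The counts of called member regions were 15, 36, 39 and 5 for RLM minus monocyte, KC minus RLM, KC minus monocyte and DLL4 minus untreated, and those of member genes 3, 6, 6 and 0. Among the alternative values of these counts and of the peak counts, 127 stayed within 1.5 times and 13 did not. With regions thinned so that none overlapped, which leaves fewer regions to call, the region count was 23 for KC minus RLM and 3 for DLL4. With no fold minimum DLL4 gave 10 regions and 4 genes, and leaving out a library gave 3 (without DLL4 replicate 2) to 8 (without DLL4 replicate 1) regions. Intervals with a peak in either library numbered 20 for LXR in KC, 11 for SMAD4 in BMDM and 9 for RBPJ in KC nuclei. Counting a single library gave 7 to 11 for SMAD4 in BMDM and 6 to 7 for RBPJ in KC nuclei, and a fold over input of at least 8 left 0 for RBPJ in KC nuclei and 16 for RBPJ in BMDM. The cause was not tested.

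Some differences near 0 turned sign. For RLM minus monocyte, Vcan at 3065 bp was -0.022 with only the compared groups and -0.24 to 0.27 on leaving out a library, Vcan at 229 bp -0.25 to 0.36, and the Vcan sum 0.00296 within 10000 bp. The Plac8 sum was -0.19 with thinned regions, -0.000267 with only the compared groups and -0.061 to 0.088 on leaving out a library. The Ly6c2 sum was -0.84 within 10000 bp and -0.82 without its downstream block, an alternative chosen after seeing the data, and Ly6c1 had no region within that distance. Ifitm6 at -93 bp, KC minus monocyte, was 0.013 with thinned regions and -0.098 to 0.026 on leaving out a library. For DLL4, Vcan at 161 bp was -0.030 with total tags as library size and -0.20 to 0.31 on leaving out a library, Vcan at 3077 bp -0.21 to 0.10, and the Chil3 sum -0.81 to 0.012. Same-numbered replicates did not deviate together (correlations -0.03 to 0.06). A fit with the replicate block gave 15, 35, 38 and 6 regions and 3, 6, 6 and 0 genes, and among the called member regions it ended only the lower calls of Ifitm6 at -21862 bp in KC against monocytes (-1.40, edgeR adjusted p = 0.0563) and of Vcan at -92149 bp in KC against RLM (-1.29, edgeR adjusted p = 0.0537). Low tag numbers limit what can be called at Ly6c1, Chil3 and most distal Vcan regions.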
